A study of Mus musculus with 2 samples.

Results

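The cathepsins Ctsa, Ctsb, Ctsc, Ctsd, Ctse, Ctsh, Ctsk, Ctsl, Ctss and Ctsz were examined by cell type in single-cell RNA sequencing of EMT6 tumors. These 10 genes were chosen by their symbols, out of 55450 genes in the count matrices, and all 10 had counts in both libraries. EMT6 is a mouse mammary carcinoma line that was grown under the skin of female BALB/c mice, bought at 5 to 6 weeks of age, which kept their own immune system. Both groups received Olaparib, a PARP inhibitor (50 mg/kg), and LLY-283, a PRMT5 inhibitor (50 mg/kg, 3 days on and 4 days off), and the Combo group also received an anti-PD-1 antibody (200 µg every 3 days). Each group was 1 library made from the tumors of 3 mice pooled, so treatment, pool of mice and library cannot be told apart, and no untreated library was analysed here. The data were used to ask which cathepsin led in each cell type, and how far this differed between the libraries.

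Cathepsins are the proteases of the lysosome. Most are cysteine proteases, among them the endopeptidases Ctsb, Ctsk, Ctsl and Ctss and the exopeptidases Ctsc, Ctsh and Ctsz, whereas Ctsd and Ctse are aspartic proteases and Ctsa is a serine carboxypeptidase that also protects lysosomal glycosidases. Macrophages use them to break down engulfed material, osteoclasts release Ctsk to digest bone collagen, antigen-presenting cells need Ctss to trim the invariant chain from MHC class II, and tumor cells and fibroblasts can release Ctsb and Ctsl into the matrix.

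In the droplet method used, each captured 3′ transcript end carries a unique molecular identifier (UMI), so a level is given as the UMIs of a gene per 1000000 UMIs of a cell class (CPM). There were 16115 cells with 147214934 UMIs in Olaparib + LLY-283 and 7542 cells with 162522700 UMIs in Combo, and 16029 and 5956 of these cells passed a filter of at least 200 genes and under 20% mitochondrial UMIs. This filter took away 0.534% and 21.0% of the cells. The libraries shared 39 barcodes. Among kept cells, the 10 cathepsins made up 0.244% of all UMIs in Olaparib + LLY-283 (359164 UMIs) and 0.283% in Combo (456530 UMIs).

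Cells were classed by the share of their UMIs that fell on marker genes, and osteoclast-like cells were those with Acp5 and Ctsk each at 0.2% or more. This gave 1015 and 668 macrophage-like cells in Olaparib + LLY-283 and Combo, 41 and 21 osteoclast-like, 671 and 1304 neutrophil-like, 49 and 65 dendritic-cell (DC)-like, 221 and 75 fibroblast (CAF)-like and 9194 and 2283 tumor-like cells. A further 4447 and 1340 cells met no marker threshold and 287 and 91 met several, and both sets were left out of the classes. Median UMIs per cell were higher in Combo in all 6 classes, from 669 against 1928 in neutrophil-like cells to 10017 against 49306 in tumor-like cells. Levels were therefore compared as CPM over summed UMIs, with exact 95% Poisson intervals, which reflect the error of counting alone. Libraries of single pools allow no test between groups, and a difference of 2-fold was the rule of size.

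UMIs of tumor-cell markers were also found in the other classes, and their source was not tested. The 5 markers of tumor-like cells (Epcam and the keratins Krt7, Krt8, Krt18 and Krt19) together reached 1062 and 1023 CPM in tumor-like cells of the 2 libraries, against 393 and 206 CPM in neutrophil-like cells, 234 and 84.1 CPM in osteoclast-like cells, 188 and 115 CPM in macrophage-like cells and 169 and 121 CPM in CAF-like cells. Because Ctsl was the most abundant cathepsin of tumor-like cells, these values are set beside the Ctsl results of the other classes, and their part in them was not tested except by leaving out the cells with such a UMI.

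A single cathepsin dominated in tumor-like cells. Ctsl, a cysteine endopeptidase, stood at 1244 CPM (1238 to 1251) in Olaparib + LLY-283 and 1222 CPM (1216 to 1228) in Combo, and made up 57.6% and 57.0% of the cathepsin UMIs. Ctsb followed at 341 and 374 CPM, Ctsz at 319 and 294 CPM and Ctsd at 157 and 155 CPM. The ratio of Ctsl to Ctsb was 3.65 (3.61 to 3.69) and 3.27 (3.24 to 3.31). Among tumor-like cells with at least 10 cathepsin UMIs, Ctsl was the single highest member in 94.7% of 8091 cells and in 97.8% of 2194 cells. The other 6 members stayed between 0.0990 and 66.6 CPM in Olaparib + LLY-283 and between 0.231 and 58.0 CPM in Combo. Counts of 3′ ends are not expected to scale with gene length, yet the exonic lengths of these genes range from 1358 bases for Ctss to 6489 bases for Ctsl. Per kilobase of exonic sequence, Ctsz (221 and 204 CPM per kilobase) stood slightly above Ctsl (192 and 188) in tumor-like cells. Such values, here and in the other classes, show only how the order moves with this scale and do not rank transcripts by number.

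**Figure D1:**
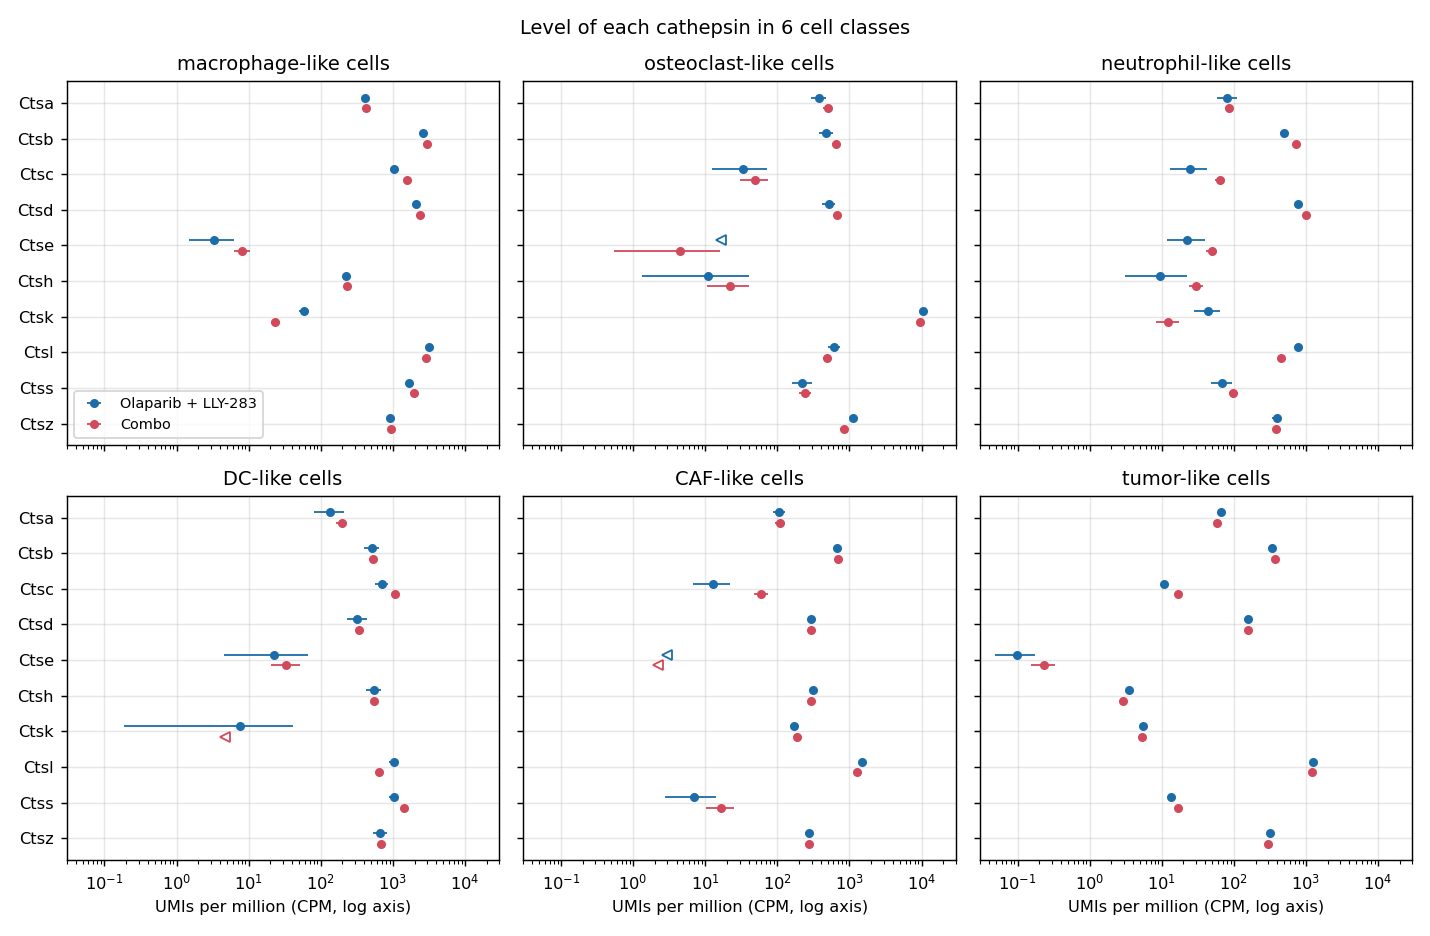
Level of the 10 cathepsins in 6 cell classes. Each panel is a class, the x axis gives CPM on a log scale, points are the 2 libraries, bars are 95% counting intervals and open triangles mark the limit that 3 counts would give where none was found. Ctsk lies near 10000 CPM in osteoclast-like cells and below 200 CPM in every other class shown, whereas Ctsl lies above 400 CPM in all 6 classes.

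Macrophage-like cells combined high levels of many cathepsins, and no member dominated. All 10 together reached 12167 CPM in Olaparib + LLY-283 and 13386 CPM in Combo, compared with 2162 and 2145 CPM in tumor-like cells. In Olaparib + LLY-283 the order was Ctsl (3167 CPM, 3100 to 3234), Ctsb (2608), the aspartic protease Ctsd (2060), Ctss (1699), Ctsc (1033) and Ctsz (901). In Combo, Ctsb (2961 CPM, 2924 to 2999) and Ctsl (2871 CPM, 2834 to 2908) changed places, and Ctsd (2344), Ctss (1990), Ctsc (1582) and Ctsz (951) followed in the same order. The first 2 members were thus 1.21-fold (1.18 to 1.25) apart in one library and 1.03-fold (1.01 to 1.05) apart in the other, a distance too small to name 1 leader of this class. Per cell, Ctsl led in 36.1% of 844 macrophage-like cells with at least 10 cathepsin UMIs in Olaparib + LLY-283 and in 26.6% of 623 cells in Combo, Ctsb in 19.9% and 22.8%, and Ctsc in 10.8% and 21.8%. Per kilobase of exonic sequence the short Ctss came first, with 1251 and 1466 CPM per kilobase, followed by Ctsd with 876 and 997. When macrophage-like cells with a tumor-marker UMI were left out, Ctsl led in Combo as well, at 3324 CPM against 2742 CPM for Ctsb. This removed 435 of the 668 cells and left 1858762 of 8084462 UMIs, from shallower cells.

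The mixture differed between kinds of macrophage. C1q-high cells (C1qa, C1qb and C1qc, the chains of complement C1q, together at least 0.2% of UMIs) numbered 547 and 325, and C1q-low cells with Arg1, the arginase of tissue-repair macrophages, or Mmp12, macrophage elastase, numbered 177 and 136. Ctsb led in C1q-high cells in both libraries, at 3211 and 3408 CPM, with Ctsl at 2846 and 2500 CPM. In the Arg1 or Mmp12 cells, Ctsl led at 4858 CPM in Olaparib + LLY-283 and 4366 CPM in Combo, which was 1.71-fold (1.62 to 1.80) and 1.75-fold (1.69 to 1.80) above the C1q-high cells. Ctsb was lower there, at 2198 and 2523 CPM (ratios of 0.685 and 0.740), as was Ctsd, at 1957 and 1822 CPM (ratios of 0.794 and 0.667). The tumor markers stood at 168 and 114 CPM in C1q-high cells and at 217 and 101 CPM in the Arg1 or Mmp12 cells. They were thus higher in the Arg1 or Mmp12 cells in Olaparib + LLY-283 and lower there in Combo, and their part in the Ctsl difference was not tested.

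Monocyte-like cells (40 and 75 cells with Ccr2 and low C1q) held less of most cathepsins. Their Ctsb stood at 1426 and 1676 CPM, 0.444 and 0.492 times the C1q-high level, and their Ctsd at 1086 and 1259 CPM, 0.440 and 0.460 times that level. Ctsc, the dipeptidyl peptidase that activates granule serine proteases, went the other way. It was found at 1455 and 1907 CPM in monocyte-like cells and at 1222 and 1615 CPM in C1q-high cells, with ratios of 1.19 (1.00 to 1.41) and 1.18 (1.12 to 1.25).

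**Figure D2:**
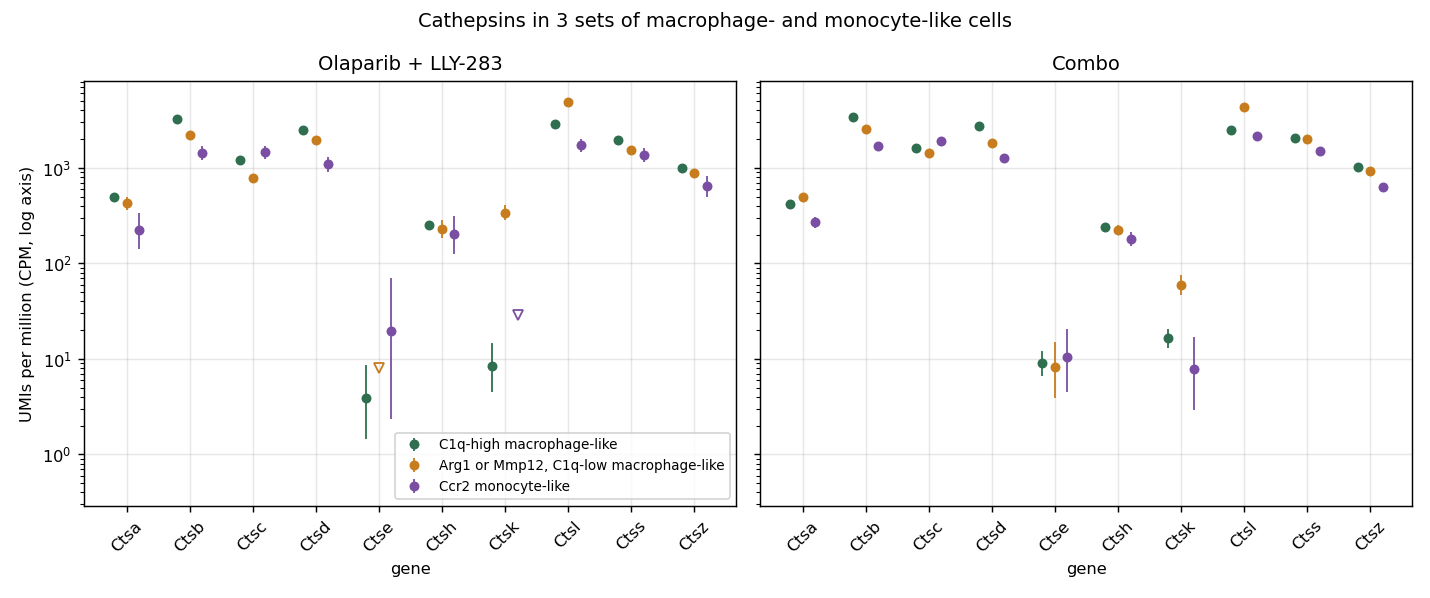
Cathepsin levels in C1q-high macrophage-like, Arg1 or Mmp12 C1q-low macrophage-like and Ccr2 monocyte-like cells. The y axis gives CPM on a log scale, bars are 95% counting intervals and open triangles mark the limit of 3 counts where none was found. Ctsl is highest in the Arg1 or Mmp12 cells in both libraries, Ctsb and Ctsd are highest in C1q-high cells, and Ctsc is highest in monocyte-like cells.

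Osteoclast-like cells were defined in part by Ctsk, the collagen-degrading protease of bone resorption, so its lead is a description and not a finding. Ctsk stood at 10438 CPM (9971 to 10921) and 9655 CPM (9371 to 9946), or 75.5% and 73.7% of the cathepsin UMIs. Per cell, Ctsk had a median of 1.03% of UMIs in Olaparib + LLY-283 and 0.950% in Combo. Osteoclast-like cells were kept even where they met the threshold of another class. A tumor-marker UMI was held by 19 of the 41 and 14 of the 21 cells. Without those cells, 57682 of 179636 and 95179 of 451881 UMIs were left, and Ctsk stood at 12812 and 15203 CPM. The lower of the Acp5 and Ctsk shares was 0.213% and 0.217% in the cells just inside the rule and 0.198% and 0.151% in those just outside it. A rule without Ctsk, which asked for Acp5 at 0.2% and 9 other osteoclast markers together at 0.2%, found 33 and 20 cells, of which 33 and 18 were the same cells. In these, Ctsk had a UMI in every cell, at 10878 and 10386 CPM, and ranged from 0.253% to 3.41% and from 0.0819% to 2.36% of a cell's UMIs.

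Other genes of osteoclasts accompanied Ctsk. Mmp9, a gelatinase that osteoclasts release, was at 4437 and 5090 CPM, 108-fold (88.7 to 133) and 135-fold (120 to 153) above macrophage-like cells, and Atp6v0d2, a subunit of the osteoclast proton pump, at 557 and 648 CPM, 30.4-fold and 46.4-fold above them. Calcr, the calcitonin receptor, had 0 and 1 UMIs, which for the 0 allows up to 16.7 CPM. The second cathepsin was Ctsz, a carboxypeptidase, at 1130 and 830 CPM, 9.24-fold and 11.6-fold below Ctsk. Ctsl, Ctsd and Ctsb lay between 473 and 618 CPM in Olaparib + LLY-283 and between 491 and 666 CPM in Combo, and the Ctsd and Ctsb levels could not be separated within counting error in either library. Ctss was low at 223 and 246 CPM, and Ctsc lower still at 33.4 CPM (6 UMIs) and 48.7 CPM (22 UMIs), against over 1000 CPM in macrophage-like cells.

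The genes of Ctsk and Ctss are neighbors on chromosome 3 (GRCm38, Ctsk at chr3:95499256-95509362 and Ctss at chr3:95526786-95556403, both on the + strand). The osteoclast-like cells found by the rule without Ctsk held 1763 of 3087 Ctsk UMIs in Olaparib + LLY-283 and 4009 of 5640 in Combo, and macrophage-like cells held 58.1% and 76.1% of the Ctss UMIs. The promoters of the pair are shown because the neighbors differed in the class that held most of their UMIs. They are the 250 bases before each start in RefSeq (GRCm38.p6), at chr3:95498960-95499209 and chr3:95526536-95526785 on the + strand, with GAGGAA or its reverse complement TTCCTC, the core bound by the myeloid factor PU.1, in capitals.
Ctsk: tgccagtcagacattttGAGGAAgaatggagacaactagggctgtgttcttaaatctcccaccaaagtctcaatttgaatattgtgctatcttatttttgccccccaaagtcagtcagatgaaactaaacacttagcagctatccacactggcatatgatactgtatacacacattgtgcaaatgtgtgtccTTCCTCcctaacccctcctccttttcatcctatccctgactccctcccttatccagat
Ctss: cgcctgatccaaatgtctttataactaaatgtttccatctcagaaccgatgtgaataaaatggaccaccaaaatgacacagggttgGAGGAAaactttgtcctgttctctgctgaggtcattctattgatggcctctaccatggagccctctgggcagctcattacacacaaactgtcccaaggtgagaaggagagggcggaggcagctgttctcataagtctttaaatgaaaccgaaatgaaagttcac
These letters occurred 233 and 58 bases before the Ctsk start and 164 bases before the Ctss start, and in 25.9% of all 27025 genes with a promoter in the table. A match of letters is a description of the window and not a site of binding.

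Neutrophil-like cells were the poorest in cathepsins among the myeloid classes, with 2684 and 2899 CPM for all 10. The aspartic protease Ctsd was at 767 CPM (695 to 846) and 999.6 CPM (962 to 1039), Ctsb at 499 and 722 CPM, Ctsl at 773 and 452 CPM and Ctsz at 395 and 386 CPM. Ctsd led in Combo, 1.38-fold above Ctsb, with intervals that did not overlap. In Olaparib + LLY-283, Ctsl and Ctsd had 409 and 406 UMIs and could not be separated. Whether RNA of tumor cells added to Ctsl was not tested beyond leaving out cells. The tumor markers, whose level also depends on depth, stood at 206 CPM in Combo and 393 CPM in Olaparib + LLY-283. Without the neutrophil-like cells that held a tumor-marker UMI, which also leaves shallower cells, Ctsd led there too, at 763 CPM against 666 CPM for Ctsl, and with a marker threshold 2 times as high it led at 792 CPM against 606 CPM. The order went the other way with a threshold 0.5 times as high, where Ctsl led at 932 CPM against 604 CPM for Ctsd. It also did in cells with at least 2000 UMIs, where Ctsl stood at 1689 CPM with Ctsb second at 563 CPM. Those cells held only 51496 of the 529081 UMIs of the class. The leader of neutrophil-like cells in Olaparib + LLY-283 thus depended on which cells were counted. Per kilobase, a scale that 3′ counts are not expected to follow, Ctsd came first in both libraries, at 326 and 425 CPM per kilobase. This does not settle the order.

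Neutrophil-like cells high in Ccl3 and Ccl4, 2 chemokines of activated neutrophils (at least 0.2% of UMIs, 409 and 673 cells), differed from those low in them (cut at 0.05%, 179 and 437 cells). The high cells had a median of 678 and 1966 UMIs, so the cut rests on fewer UMIs in Olaparib + LLY-283. There, Ctsd stood at 804 CPM and Ctsl at 644 CPM in the high cells, and at 678 and 853 CPM in the low cells. In Combo Ctsd was first in both sets, at 1056 and 892 CPM. Ctsz stood at 466 and 471 CPM in the high cells and at 299 and 280 CPM in the low cells, with ratios of 1.56 (1.09 to 2.26) and 1.68 (1.45 to 1.95). Ctse was the reverse, at 3.19 and 31.6 CPM in the high cells against 51.0 and 71.0 CPM in the low cells, a ratio of 0.445 (0.295 to 0.665) in Combo and of 0.0625 (0.00139 to 0.486) in Olaparib + LLY-283, where the high cells held 1 UMI. Ctsb was higher in the chemokine-high cells in Combo, at 793 against 572 CPM (1.39-fold, 1.25 to 1.54), and stood at 526 against 394 CPM in Olaparib + LLY-283 (1.34-fold, 0.977 to 1.85, which includes 1). The tumor markers were at 325 and 210 CPM in the high cells and at 562 and 205 CPM in the low cells.

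The Ctsd promoter (chr7:142387828-142388077 on the - strand of GRCm38.p6, 250 bases from RefSeq) is shown because Ctsd led in neutrophil-like cells of Combo, and shared the first place with Ctsl in Olaparib + LLY-283, and because it carries CACGTG, the core of the element bound by TFEB, a regulator of lysosomal genes. Capitals mark CACGTG, which reads the same on both strands.
Ctsd: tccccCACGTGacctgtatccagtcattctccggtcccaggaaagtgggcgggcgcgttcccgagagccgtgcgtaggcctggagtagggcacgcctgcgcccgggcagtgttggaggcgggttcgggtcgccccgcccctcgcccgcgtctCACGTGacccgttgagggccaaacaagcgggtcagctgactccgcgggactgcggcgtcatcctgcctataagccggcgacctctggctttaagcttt
The letters occurred 245 and 98 bases before the start. Promoters of 7 of the 10 cathepsins were in the table, and 3 of these genes held CACGTG, namely Ctsd, Ctsl and Ctsa, the last in the second of 2 promoters. The RefSeq start of Ctsd lies within the longer GENCODE gene, so that its window overlaps the gene in part. The Ctsl window and the Ctsa window that held the letters lie wholly inside their GENCODE genes. The Ctsa window before the gene held none. The letters were held by 6.86% of all genes with a promoter there, as did 7 of the 22 genes of the lysosome and sorting list that were found.

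In DC-like cells Ctss was high in both libraries, though below its level in macrophage-like cells, as was Ctsc. Ctss, the endopeptidase of invariant chain processing, was at 1046 CPM (880 to 1234) in Olaparib + LLY-283 and 1431 CPM (1340 to 1528) in Combo, and Ctsc at 702 and 1072 CPM. In Combo Ctss led, 1.33-fold (1.21 to 1.48) above Ctsc. In Olaparib + LLY-283, Ctss and Ctsl tied at 140 UMIs each. Ctsl was 1046 CPM there and 644 CPM in Combo. The tumor markers were at 120 and 122 CPM in DC-like cells, and without the cells that held such a UMI Ctss led in Olaparib + LLY-283 at 1223 CPM, ahead of Ctsc at 815 CPM. Per kilobase Ctss led in both libraries (770 and 1054 CPM per kilobase). When cells were classed by clusters instead, 34 of the 49 and 32 of the 65 cells stayed DC-like. Ctss then led in both libraries, at 766 and 1279 CPM. In Combo Ctsz, at 668 CPM, was second in place of Ctsc. Monocyte markers (Ly6c2, Ccr2, Plac8 and Chil3) summed to 889 and 1072 CPM in DC-like and 347 and 480 CPM in macrophage-like cells. Their part in the Ctsc level was not tested. DC-like cells also had the highest Ctsh of the 6 classes, at 545 CPM (427 to 686) and 546 CPM (490 to 606). With 49 and 65 cells, the order of Ctsc and Ctsz in Olaparib + LLY-283 (ratio 1.06, 0.782 to 1.43) and of Ctsz and Ctsl in Combo (ratio 1.05, 0.918 to 1.21) was within counting error.

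CAF-like cells shared their leader with tumor-like cells, but a Ctsl lead was not particular to them. Outside the 6 classes, Ctsl also led in endothelial-like cells (1217 and 1089 CPM) and in myogenic-like cells (464 and 431 CPM). T and NK-like cells were led by Ctsl in Olaparib + LLY-283 and by Ctsd in Combo. No cluster was named CAF-like, so this class rests on the marker threshold alone. Of its cells, 9.95% in Olaparib + LLY-283 and 12% in Combo lay within 25% above that threshold. Ctsl was at 1489 CPM (1415 to 1566) and 1270 CPM (1210 to 1332) and Ctsb at 663 and 698 CPM, a ratio of 2.25 (2.05 to 2.46) and 1.82 (1.68 to 1.97). The tumor markers were at 169 and 121 CPM in CAF-like cells, against 1062 and 1023 CPM in tumor-like cells. The classing itself sets part of this gap. Ctsl also led per kilobase, at 229 and 196 CPM per kilobase, with Ctsz next at 190 and 189. CAF-like cells were set apart from tumor-like cells by 2 minor members. Ctsh, an aminopeptidase, was at 313 and 295 CPM and Ctsk at 173 and 187 CPM, against 3.50 and 2.93 CPM and 5.52 and 5.30 CPM in tumor-like cells. This was a difference of 89.3-fold (76.8 to 104) and 101-fold (86.8 to 117) for Ctsh and of 31.2-fold (26.3 to 37.0) and 35.3-fold (30.4 to 41.0) for Ctsk. Ctsk had a UMI in 98 of 221 and 48 of 75 CAF-like cells, and the 5 highest cells held 14.9% and 26.8% of its UMIs, so it was spread over the class.

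**Figure D3:**
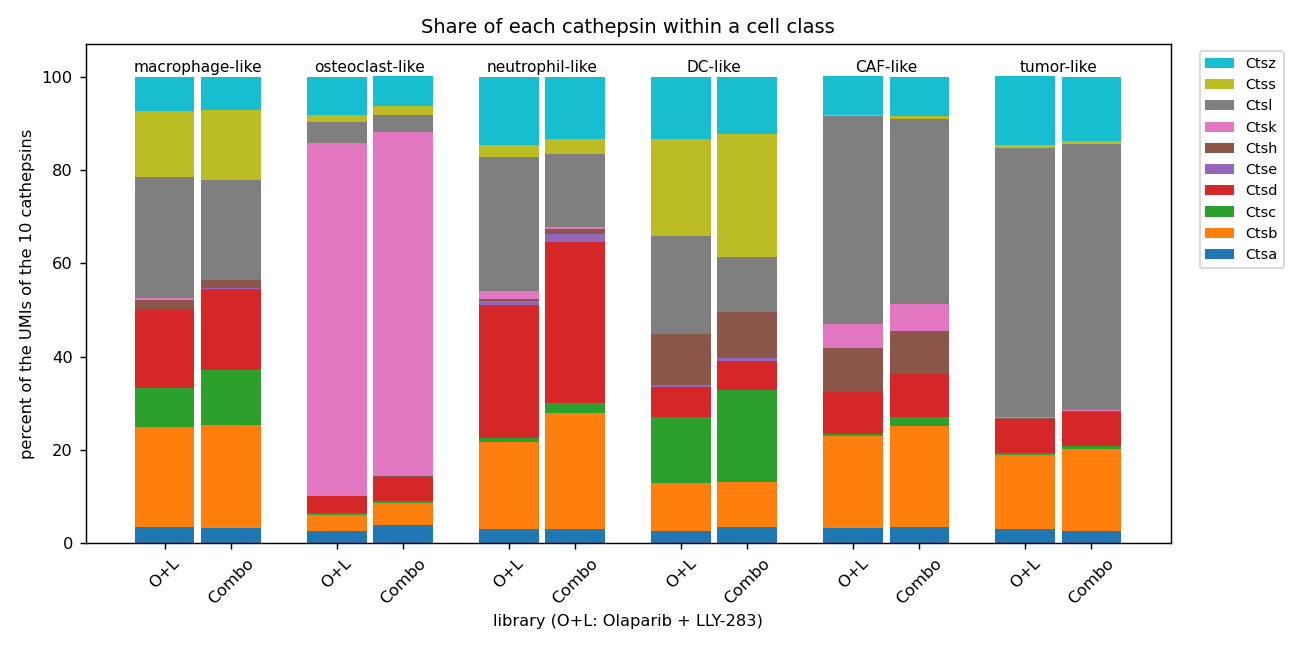
Share of each cathepsin among the UMIs of all 10 within a class. Each bar is 1 library (O+L stands for Olaparib + LLY-283) and adds to 100%. Ctsk fills 75.5% and 73.7% of the osteoclast-like bars and Ctsl 57.6% and 57.0% of the tumor-like bars, whereas no member exceeds 26.0% in macrophage-like or 26.2% in DC-like cells.

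Seen gene by gene, the members fell into broad and restricted patterns. Of the endopeptidases, Ctsb and Ctsl were found in every class, from 341 to 2608 CPM for Ctsb and from 618 to 3167 CPM for Ctsl in Olaparib + LLY-283. Ctsl was highest in macrophage-like cells and second in CAF-like cells in both libraries. Ctss ranged over 2 orders of magnitude, from 6.90 and 16.5 CPM in CAF-like cells and 13.4 and 16.6 CPM in tumor-like cells to 1699 and 1990 CPM in macrophage-like cells. Because depth differed between classes, each cell was thinned to 1000 UMIs for shares of cells. Ctss then had a UMI in 76.2% of 861 and 79.2% of 640 macrophage-like cells and in 66.7% of 42 and 67.7% of 65 DC-like cells, against 1.25% and 1.59% of tumor-like cells. Without thinning, the tumor-like shares were 11.3% and 46.2%, which followed the depth of the libraries.

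The exopeptidases differed in how restricted they were, and none was high in all myeloid classes while low elsewhere. In neutrophil-like cells Ctsc was at 24.6 and 64.8 CPM and Ctsh at 9.45 and 30.1 CPM. In osteoclast-like cells Ctsc was at 33.4 and 48.7 CPM and Ctsh at 11.1 and 22.1 CPM. Ctsc was close to Ctss in its distribution, with 1033 and 1582 CPM in macrophage-like, 702 and 1072 CPM in DC-like and 10.8 and 16.9 CPM in tumor-like cells. Ctsh was highest in DC-like cells, followed by CAF-like cells at 313 and 295 CPM and macrophage-like cells at 222 and 230 CPM. It was almost missing from tumor-like cells, in which 3.48% and 11.2% of cells had a UMI, or 0.316% and 0.264% after thinning. Ctsz was present in all 6 classes within a narrow range of 273 to 1130 CPM in Olaparib + LLY-283 and 272 to 951 CPM in Combo, with osteoclast-like and macrophage-like cells at the top.

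Ctsd, an aspartic protease, was highest in macrophage-like cells, at 2060 and 2344 CPM, with neutrophil-like cells second at 767 and 999.6 CPM and tumor-like cells last at 157 and 155 CPM. Its relative Ctse was rare. Over all kept cells it had 51 and 291 UMIs, of which neutrophil-like cells held 23.5% and 44.3%. Ctse was at 22.7 CPM (11.7 to 39.6) and 49.2 CPM (41.1 to 58.5) in neutrophil-like cells, at 22.4 CPM (3 UMIs) and 33.2 CPM in DC-like cells and at 3.30 and 8.16 CPM in macrophage-like cells. The 50 and 45 T and NK-like cells, a class outside the 6, had 58.4 CPM (4 UMIs) and 58.0 CPM (14 UMIs). No UMI of Ctse was found in CAF-like cells, which allows up to 2.96 and 2.25 CPM. The serine carboxypeptidase Ctsa was highest in macrophage-like cells, at 417 and 425 CPM, and in osteoclast-like cells, at 379 and 500 CPM, and the order of these 2 classes differed between the libraries.

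**Figure D4:**
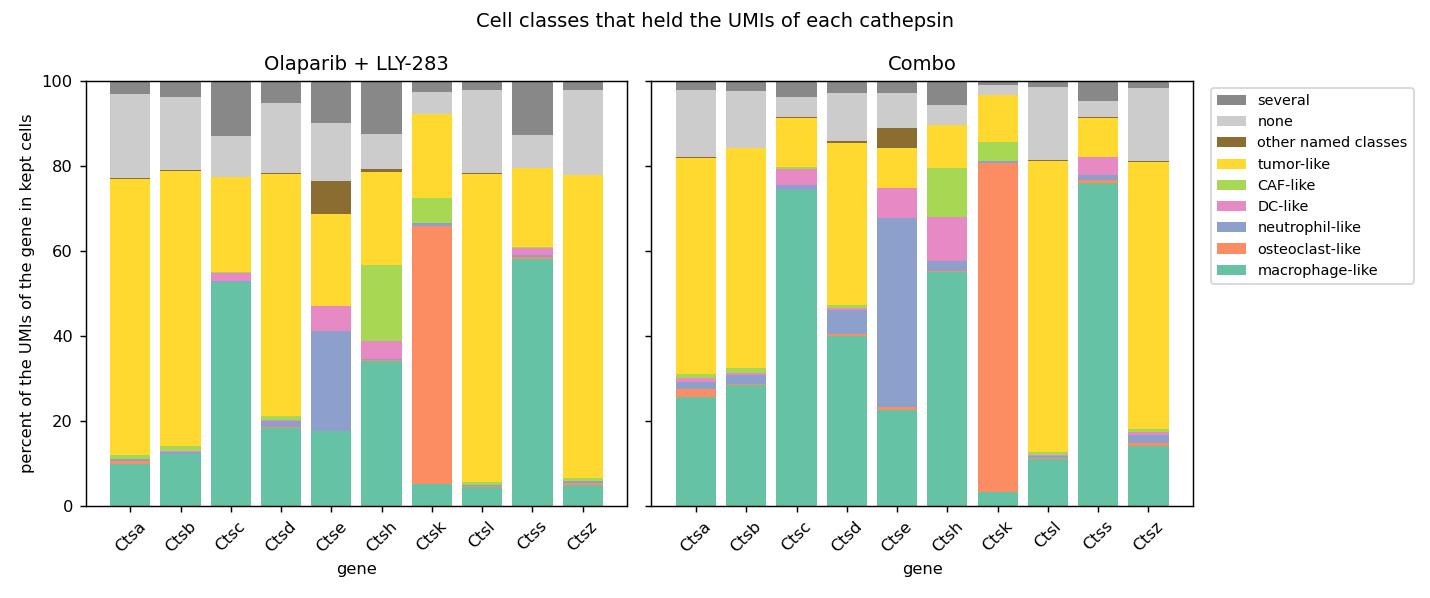
Cell classes that held the UMIs of each cathepsin among kept cells, as a percent of the gene's UMIs in each library. Cells that met no marker threshold are light gray and those that met several are dark gray. Tumor-like cells held 72.5% and 68.4% of Ctsl, macrophage-like cells 58.1% and 76.1% of Ctss, and osteoclast-like cells, chosen in part by Ctsk, 60.7% and 77.4% of Ctsk.

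Although they were few, the macrophage-like cells supplied a large part of several cathepsins. They made up 6.33% and 11.2% of kept cells but held 52.7% and 74.3% of the Ctsc UMIs and 18.3% and 39.9% of the Ctsd UMIs. For Ctsl this part was 4.53% and 11.1%. The class held 2730366 of 147154920 kept UMIs in Olaparib + LLY-283 and 8084462 of 161129069 in Combo. Its Ctsl level was 2.54 and 2.35 times the tumor-like level. Osteoclast-like cells, at 0.256% and 0.353% of cells, held 60.7% and 77.4% of the Ctsk UMIs, a share that follows in part from their choice by Ctsk. Tumor-like cells remained the largest source of Ctsa, Ctsb, Ctsl and Ctsz in both libraries, and of Ctsd in Olaparib + LLY-283, where they held 57.0% of it against 38.2% in Combo. The shares of cells per class differed between the libraries as well, which enters these values.

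Each class was next compared with tumor-like cells within each library. A gene was counted where its tumor-like level would have given at least 20 UMIs in the class, a filter that does not use the class's own counts, and it was called where it differed at least 2-fold in the same direction in both libraries. In macrophage-like cells, 7 of the 10 members passed the filter (all but Ctse, Ctsh and Ctsk) and all 7 were higher, with a median log2 ratio of 2.96. Of all genes, 7.40% were higher and 12.7% lower, with a median of -0.25. The folds ran from 2.54 and 2.35 for Ctsl to 127 and 120 for Ctss.

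In osteoclast-like cells, Ctsb, Ctsd, Ctsl and Ctsz passed the filter. Ctsd (3.29-fold and 4.30-fold) and Ctsz (3.54-fold and 2.82-fold) were higher, and Ctsl was lower, at 0.497 (0.408 to 0.598) and 0.402 (0.351 to 0.459) times the tumor-like level, against 5.27% of all genes higher and 13.9% lower. Ctsb, at 1.39-fold and 1.72-fold, was not called. In neutrophil-like cells, Ctsa, Ctsb, Ctsd, Ctsl and Ctsz passed the filter. Ctsd alone was higher (4.88-fold and 6.45-fold) and none was lower, against 4.51% and 24.4% of all genes, whose median log2 ratio was -1.01. Ctsl was at 0.621 and 0.370 times the tumor-like level.

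In DC-like cells, Ctsd (2.04-fold and 2.20-fold) and Ctsz (2.08-fold and 2.31-fold) of 4 members were higher and none was lower, against 2.70% and 13.9% of all genes. In CAF-like cells none of 5 members (Ctsa, Ctsb, Ctsd, Ctsl and Ctsz) was called, against 5.13% higher and 7.51% lower among all genes. Ctsb, at 1.94-fold and 1.87-fold, and Ctsd, at 1.89-fold and 1.90-fold, were just under the threshold. Members scarce in tumor-like cells failed the filter, so these counts leave out large differences. Not counted were Ctsh and Ctsk in CAF-like cells (89.3-fold and 101-fold, and 31.2-fold and 35.3-fold). In DC-like cells they were Ctss (78-fold and 86-fold), Ctsc (65.3-fold and 63.6-fold) and Ctsh (156-fold and 186-fold). Not all were higher, as Ctss in CAF-like cells was at 0.515 and 0.99 times the tumor-like level.

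Other genes of the pathway came from fixed lists. Of 29 lysosome and sorting genes, 25 passed the same filter in macrophage-like cells and 17 were higher than in tumor-like cells, with none lower and a median log2 ratio of 1.37. They included Lgmn, the legumain that processes several cathepsins, at 1032 and 1346 CPM against 77.1 and 93.1 CPM in tumor-like cells. Psap, the precursor of the saposins, was at 1605 and 1698 CPM against 306 and 333 CPM. In the other classes 2 of 4 such genes were higher in osteoclast-like, 2 of 11 in neutrophil-like, 1 of 4 in DC-like and 4 of 18 in CAF-like cells, and none was lower. Of all genes, 7.40% were higher and 12.7% lower in macrophage-like cells. The shares were 5.27% and 13.9% in osteoclast-like, 4.51% and 24.4% in neutrophil-like, 2.70% and 13.9% in DC-like and 5.13% and 7.51% in CAF-like cells. With 4 genes, 1 or 2 calls say little.

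Inhibitors of cysteine cathepsins had their own distribution. Cst3, the secreted cystatin C, was highest in DC-like cells, at 11264 and 9719 CPM, compared with 2299 and 2208 CPM in macrophage-like and 1801 and 1543 CPM in tumor-like cells. Stfa2l1 and BC100530, stefins that block cysteine proteases inside the cell, were concentrated in neutrophil-like cells, with 1234 and 1205 CPM for Stfa2l1 and 688 and 704 CPM for BC100530, and at most 7.67 CPM in any other class. Stefins are near-identical copies, and the split of reads among them is uncertain. In neutrophil-like cells the cysteine cathepsins Ctsb and Ctsl (499 and 722 CPM, and 773 and 452 CPM) thus stood below the level of Stfa2l1. Of the 12 inhibitors matched by symbol, 4 or fewer passed the filter in any class, and in macrophage-like cells 0 of 4 were higher and 1 was lower. In neutrophil-like cells 0 of 4 were higher and 2 were lower, against 4.51% and 24.4% of all genes. Their median log2 ratio was -1.16, against -1.01 for all genes, and Stfa2l1 and BC100530 were not among these 4. Of 11 further cathepsins, Ctsw, a cathepsin of cytotoxic lymphocytes, reached 584 and 493 CPM in T and NK-like cells. Ctsf was highest in CAF-like cells (33.5 and 30.7 CPM), Ctso was between 4.58 and 22.4 CPM in the 6 classes, Ctsg was at 0.124 CPM or less, and Cts6, Ctsj, Ctsll3, Ctsm, Ctsq and Ctsr had no UMI in them.

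Between the libraries, 9 of 56 tested pairs of a member and a class were past 2-fold, of which 4 were in neutrophil-like, 2 in macrophage-like, 2 in CAF-like and 1 in tumor-like cells. In tumor-like cells, the ratio of Combo to Olaparib + LLY-283 was between 0.838 and 1.57 for 9 of 10 members, including 0.982 (0.975 to 0.989) for Ctsl, 1.09 (1.08 to 1.11) for Ctsb and 1.57 (1.46 to 1.69) for Ctsc. The exception was Ctse, at 0.0990 and 0.231 CPM (11 and 27 UMIs), a ratio of 2.33 (1.12 to 5.21). Past 2-fold in either direction lay 4.16% of 17150 genes in this class. In macrophage-like cells, Ctsc was 1.53-fold (1.47 to 1.60) higher in Combo and the other abundant members were between 0.907 and 1.17. Ctse (3.30 and 8.16 CPM, ratio 2.48, 1.23 to 5.65) and Ctsk (58.6 and 23.5 CPM, ratio 0.401, 0.323 to 0.498) were past 2-fold, against 6.84% of all genes. Cells that met the osteoclast-like rule, which uses Ctsk, were not in this class, and that limits its Ctsk level. The Ctsk value also rested on few cells. In Olaparib + LLY-283, 5 of the 1015 macrophage-like cells held 118 of 160 Ctsk UMIs, and in Combo 5 of 668 cells held 102 of 190.

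The macrophage-like class holds no cell that met the osteoclast-like rule, which uses Ctsk. Within what was left, Ctsk was at 339 and 60.0 CPM in the Arg1 or Mmp12 set, 39.8-fold and 3.62-fold above C1q-high cells. In that set 5 cells held 116 of 128 Ctsk UMIs in Olaparib + LLY-283 and 57 of 73 in Combo. Without its 5 highest cells the set had 33.9 and 14.1 CPM of Ctsk, and the C1q-high set without its own 5 highest cells 5.32 and 8.30 CPM. Acp5 had a UMI in 2 and 3 of those 5 cells of the Arg1 or Mmp12 set.

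In osteoclast-like and DC-like cells none of the 8 and 9 tested members was past 2-fold. Of all genes 10.6% and 14.6% were, so with so few members a count of 0 is near the background. Ctsk of osteoclast-like cells differed 0.925-fold (0.876 to 0.977). These cells were chosen in part by Ctsk, which limits how far its level could differ. This ratio is therefore no test of a library difference, although it is counted among the 8 members and the 56 pairs. With the osteoclast rule lacking Ctsk, its level was 10878 CPM in Olaparib + LLY-283 and 10386 CPM in Combo. In DC-like cells Ctsc was 1.53-fold (1.23 to 1.92) and Ctss 1.37-fold (1.14 to 1.65) higher in Combo, and Ctsl was 0.616-fold (0.507 to 0.751). In CAF-like cells, Ctsc (12.8 and 59.9 CPM, ratio 4.68, 2.58 to 9.16) and Ctss (7 and 22 UMIs, ratio 2.39, 0.985 to 6.62) were past 2-fold, against 4.85% of all genes. Both are genes of macrophages, whose 13 markers summed to 0.0116% and 0.0143% of UMIs in CAF-like cells of the 2 libraries, and their part in these ratios was not tested. With cells that met the marker threshold at 2 times the share, Ctss in CAF-like cells was no longer past 2-fold and Ctsc was.

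Neutrophil-like cells showed most members past 2-fold, 4 of 10, in the class where 18.7% of all genes were past it and the median log2 ratio of all genes was -0.18. Ctsc (13 and 170 UMIs, ratio 2.64), Ctse (12 and 129 UMIs, 2.17, 1.20 to 4.31) and Ctsh (5 and 79 UMIs, 3.19, 1.31 to 10.1) were higher in Combo. Ctsk (23 and 32 UMIs, 0.281, 0.159 to 0.502) was lower, with 14 of the 23 UMIs in a single cell, and at 0.5 times the marker threshold its direction turned (log2 ratio 0.05). The abundant members stayed within 2-fold, with Ctsd at 767 and 999.6 CPM, Ctsb at a ratio of 1.45 (1.27 to 1.65) and Ctsl at 0.585 (0.522 to 0.656). The ratio of Ctsc was thus above 1 in all 6 classes, from 1.46 in osteoclast-like cells (0.573 to 4.39, which includes 1) to 4.68 in CAF-like cells. Macrophage-like cells held 52.7% and 74.3% of the Ctsc UMIs in Olaparib + LLY-283 and Combo. The part of their RNA in the ratios of the other classes was not tested, so the 6 ratios are not separate results. Without the cells with the highest Scrublet (doublet) scores, Ctsc in neutrophil-like cells was no longer past 2-fold (log2 ratio 0.93, from 1.35). Ctse and Ctsk of neutrophil-like cells were no longer past it either, whereas Ctsh was. This setting left out 2055 cells of all classes in Olaparib + LLY-283 and 284 in Combo.

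**Figure D5:**
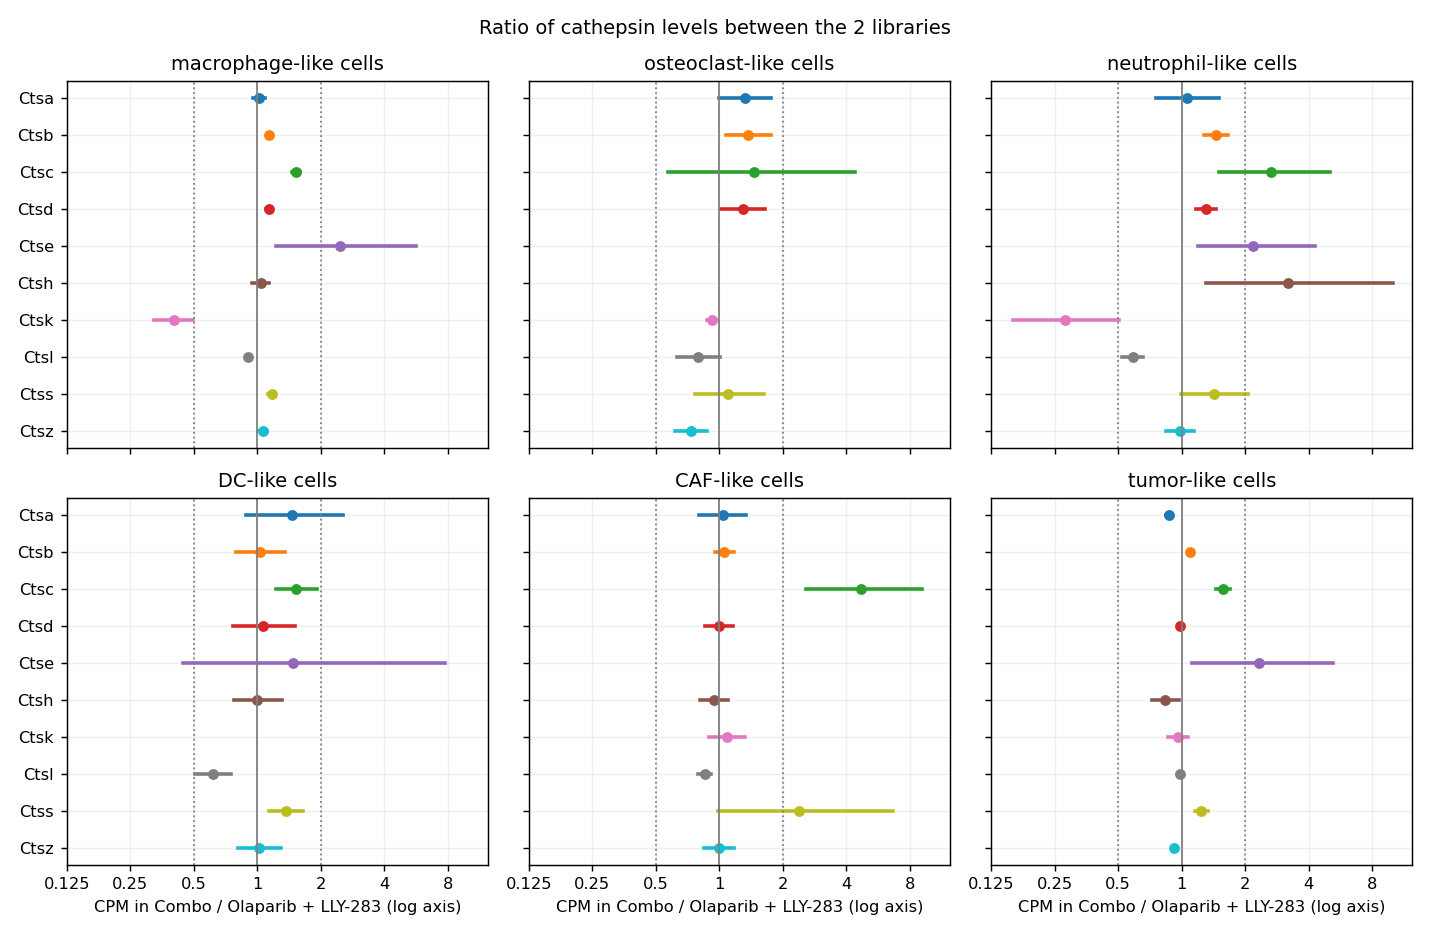
Ratio of each cathepsin's level in Combo to that in Olaparib + LLY-283, by class. The x axis is logarithmic, points are ratios of CPM, bars are 95% counting intervals and dotted lines mark 2-fold. Only members with at least 20 UMIs over both libraries are drawn. In tumor-like cells 9 of 10 members lie between 0.838 and 1.57, and in neutrophil-like cells 4 lie beyond a dotted line.

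Tumor-like cells were also divided by the cell cycle. Those high in 6 G2 and mitosis genes (2510 and 613 cells) had less Ctsl than those low in them (3389 and 1010 cells), at 1135 and 1075 CPM against 1384 and 1384 CPM, ratios of 0.820 (0.809 to 0.831) and 0.777 (0.767 to 0.787). Ctsd was at 0.862 and 0.798 times, Ctsb at 0.894 and 0.871 times and Ctsz at 0.942 and 0.946 times the level of the low cells. Ctsl remained the leader in both sets.

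Genes with the most similar pattern to each member were sought over 18 points, the 9 named classes in 2 libraries, by Pearson's r of log2(CPM + 1) among 5567 genes. The points share libraries and depth, so r is a description. Ctss was most like Irf5 (r = 0.922), an interferon regulatory factor, and Ctsc most like Ly86 (0.927), with the costimulator Cd86 among the 3 closest genes of both. Ctsk followed Pheta1 (0.924) and Atp6v0d2 (0.873), and Ctsb had Stom (0.872) and Lgmn (0.859). The osteoclast-like points were chosen in part by Ctsk, which enters the r values of Ctsk. Ctse was closest to Gpr132 (0.972), Ctsl to Emp1 (0.890), Ctsd to Tmem189 (0.815), Ctsh to Dmkn (0.808) and Ctsa to Gpx1 (0.902). Ctsz and Ctsa shared Tnfrsf11a, the receptor RANK, among their 3 closest genes, and Ctsa was itself the second closest to Ctsz (0.885).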

How the data were processed

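Single-cell RNA sequencing of EMT6 tumors, 1 library per group, was analysed from the deposited count matrices, in which the authors had aligned 3′ reads and counted UMIs per gene and cell with Cell Ranger (6.1.2 in the matrix headers). The genes were matched to GENCODE M21, with all 55450 IDs found. Cells below 200 genes, or with 20% or more of UMIs from mitochondrial genes, were dropped, and the others classed by marker share, at 0.2% for macrophage-like, 1% for neutrophil-like and CAF-like, 0.04% for tumor-like and 0.5% for DC-like cells, each with at least 3 marker UMIs. DC-like cells also needed a DC-specific UMI and under 0.1% C1q. Doublets were treated by leaving out cells of several classes. Osteoclast-like cells were exempt from this, as their rule was applied last. A cell that met the DC-like rule was not counted as macrophage-like. Scrublet's own threshold called 0 cells.

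UMIs were summed per class and library, with exact Poisson and conditional binomial intervals (scipy 1.17.1, numpy 2.4.6, Python 3.11.15). Library ratios used genes with 20 UMIs in the 2 libraries together and a pseudocount of 0.5 UMI. The ratio code was tested on simulated data. Clusters came from scanpy 1.11.5. Named genes were the 10 members, the leading genes of the fixed pathway lists and, from the 3 genes most like each member, those given. The members, lists and marker thresholds were chosen with earlier results of these data known. No sample was left out, and other settings are compared in the closing section.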

Additional observations from a re-analysis of the deposited data

Results flagged for a closer look

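In macrophage-like cells the order of the 2 leading cathepsins differed between the libraries. The level of Ctsb was 0.824 times that of Ctsl in Olaparib + LLY-283 and 1.03 times in Combo. Each group is 1 library, so the difference was not tested. Of the subsets, C1q-high cells led with Ctsb and Arg1 or Mmp12 cells with Ctsl in both libraries. The tumor-marker level of the class was 188 CPM in Olaparib + LLY-283 and 115 CPM in Combo, and its part in the order was not tested beyond leaving out the cells with such a UMI, after which Ctsl led in both libraries. In Combo this removed 435 of 668 cells and left 1858762 of 8084462 UMIs, from shallower cells.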

How the results depend on the processing

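Of the 12 leaders (6 classes in 2 libraries), 11 stayed without limits on cells, with at least 2000 UMIs per cell or with marker thresholds at 0.5 times, 10 at 2 times or without the highest Scrublet scores, 12 with the osteoclast rule lacking Ctsk, 9 as a mean over cells and 8 of 10 with clusters, which gave no CAF-like value. Per exonic length, with which 3′ counts are not expected to scale, only 6 stayed. Leaving out cells with a tumor-marker UMI, chosen after seeing the data, left 9. The 12 count the tie of Ctsl and Ctss in DC-like cells of Olaparib + LLY-283 (140 UMIs each) as a lead of Ctsl. Apart from exonic length, every change of leader fell on this tie, on neutrophil-like cells of Olaparib + LLY-283 or on macrophage-like cells of Combo. In macrophage-like cells of Combo the log2 ratio of Ctsb to Ctsl turned from 0.04 to -0.28 without those cells and to -0.03 as a mean over cells. The 9 member and class pairs past 2-fold between libraries became 4 without the highest Scrublet scores, where the cause was not tested, and 3 with clusters. Lost without the highest Scrublet scores were Ctsc, Ctse and Ctsk in neutrophil-like, Ctse in macrophage-like and Ctss in CAF-like cells. With clusters 2 of the 9 stayed and Ctsl in DC-like cells was added. Ctsc and Ctss in CAF-like cells were lost because clusters gave no such class. Ctse and Ctsk in macrophage-like and Ctse, Ctsh and Ctsk in neutrophil-like cells were lost although clusters gave those classes. Ctsk in neutrophil-like cells turned from -1.84 to 0.05 (log2) with thresholds at 0.5 times. The near tie of Ctsl and Ctsd in neutrophil-like cells of Olaparib + LLY-283 (log2 ratio 0.01) ranged from -1.45 per exonic length to 2.05 with at least 2000 UMIs. The latter setting kept 51496 of 529081 UMIs. The log2 ratio was below 0 with thresholds at 2 times (-0.38), without the highest Scrublet scores (-0.48), with clusters (-0.57), as a mean over cells (-0.33) and without cells with a tumor-marker UMI (-0.19). No paired analysis was possible because each group is 1 library, and no library could be left out. Depth limits Ctse in every class and Ctsk, Ctsc and Ctsh in neutrophil-like cells of Olaparib + LLY-283.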
